A study of Homo sapiens with 4 samples.

Results

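The NRF2 pathway and its antioxidant target genes were examined in RNA-seq libraries from cells labelled NB4, a human line derived from acute promyelocytic leukemia. They comprise 10 genes, chosen by name as rows of the deposited expression table, which lists 58735 genes. There were 4 libraries, 2 from cells that the labels give as untreated (control; a vehicle is not mentioned there) and 2 from cells that received 25 nM GNE-987 for 24 h. The compound is a degrader that joins a ligand of the BET bromodomain proteins to a ligand of the VHL ubiquitin ligase, so that the ligase marks the bound protein for degradation. All libraries come from a single cell line, and nothing in the labels says that replicates came from separate cultures, so P values measure only the spread between these libraries.

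NRF2, the product of NFE2L2, is a transcription factor that is made continuously and destroyed continuously. In unstressed cells KEAP1, an adaptor of the CUL3 ubiquitin ligase, holds NRF2 and marks it for the proteasome. Oxidants and electrophiles modify cysteines of KEAP1, NRF2 then accumulates, pairs with a small MAF protein and binds antioxidant response elements, while BACH1 occupies the same elements as a repressor that heme inactivates. The target genes make glutathione, reduce thioredoxin, detoxify quinones and break down heme. NRF2 is mostly controlled as a protein, which RNA-seq does not measure.

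The labelled cell type was compared with marker genes before the results. Of 8 granulocytic markers, MPO, the granule peroxidase of promyelocytes, was at 0.0246 and 0 FPKM in control and 11.8 and 11.3 FPKM with GNE-987, CTSG was listed at 0 in all 4 libraries, and the summed level was 3.40 and 3.91 FPKM in control and 27.5 and 26.4 FPKM with GNE-987. Of 11 erythroid markers none was at 0, and their summed level was 687 and 686 FPKM in control and 980 and 862 FPKM with GNE-987, with GATA1, the erythroid master regulator, at 124 and 122 FPKM in control and 15.1 and 12.5 FPKM with GNE-987. The summed level of 5 lymphoid markers was 0.936 and 0.950 FPKM in control and 23.7 and 22.1 FPKM with GNE-987, mostly from CD79A at 0.0867 and 0 FPKM in control and 23.4 and 21.4 FPKM with GNE-987. The marker levels of the control libraries go against a promyelocytic identity, and the cells are called here by their label. FPKM values give fragments scaled to gene length and by 1 factor per library, so they can be compared between genes. That factor follows the typical gene here, not the total of reads, as the processing section gives. The values rest on 19487700 and 19289235 reads on genes in control and 12432249 and 12938979 with GNE-987. The share of reads from mitochondrial genes was 3.74% and 4.53% in control and 15.6% and 15.2% with GNE-987. The part that these marker and mitochondrial shifts have in the results below was not tested. Because the values are relative within a library, less RNA of every gene per cell and fewer cells cannot be told apart from no change.

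The letters of the antioxidant response element were looked for in the promoters, because the target genes are defined by it. RefSeq promoter windows on GRCh38.p14, from 250 bases before to 50 bases after a transcription start, were found for 9 of the 10 genes, with 15 windows in all. The core TGACNNNGC, where N is any base, was searched on both strands. It was present in 4 of these 15 windows (26.7%) and in 4687 of 35116 windows of all genes (13.3%). The longer MAF recognition element (both strands, 12 letters of which 8 are fixed) was present in 1 of the 15 windows, that of NQO1, and in 1.47% of all windows. Of 100 windows of the other pathway genes listed further on, 17% held the core and 2% the longer pattern. For each of the promoters shown here 1 match that lies wholly before the start site is in capitals, with the gene's strand read 5′ to 3′.
GCLM, chr1:93909431-93909489, minus strand: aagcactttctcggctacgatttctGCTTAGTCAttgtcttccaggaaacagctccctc
TXNRD1 outer start, chr12:104215655-104215713, plus strand: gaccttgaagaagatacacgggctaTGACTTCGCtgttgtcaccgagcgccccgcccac
TXNRD1 inner start, chr12:104286905-104286963, plus strand: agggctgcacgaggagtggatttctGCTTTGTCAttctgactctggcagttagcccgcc
KEAP1 inner start, chr19:10502772-10502827, minus strand: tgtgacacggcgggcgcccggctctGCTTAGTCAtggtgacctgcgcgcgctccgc
NQO1, chr16:69726643-69726704, minus strand: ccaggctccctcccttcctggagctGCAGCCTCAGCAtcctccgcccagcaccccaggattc
GCLM and KEAP1 held the same 9 letters, GCTTAGTCA, which read TGACTAAGC on the opposite strand, with the first base 34 bases before the start in GCLM and 31 bases before the start in KEAP1. KEAP1 held a further match, TGACACGGC, starting 54 bases before the same start and left in lower case in its line, and TXNRD1 a further match across its outer start. The windows of NFE2L2, NFE2L1, BACH1, GCLC and SRXN1 held neither motif, which says only that these letters are not in these windows. As shown next, GCLM and KEAP1 carried the same letters and were the genes with the greatest rise and the greatest fall among the 9 tested in the deposited scaling.

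Differential expression between GNE-987 and control was tested by limma, using log2(FPKM + 0.1), in the 16668 genes whose mean was 0.5 FPKM or more. Calls needed P under 0.05 without adjustment together with a change of more than 2-fold either way. Of the 10 genes, 9 were tested and HMOX1 was below the filter. In the deposited scaling 3 of the 9 were called higher (GCLM, SRXN1 and NQO1), 2 lower (KEAP1 and NFE2L1) and 4 were not called (TXNRD1, GCLC, NFE2L2 and BACH1). Over all genes tested, 33.6% were called higher and 24.9% lower (58.5% in either direction), and over the 10996 protein-coding genes tested, 24% higher and 31.7% lower (55.7%), so the 5 calls among 9 genes are near the background. Median log2 fold changes were 0.49 for the 9 genes, 0.17 for all genes tested and -0.29 for the protein-coding genes.

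Some of these directions depend on how the libraries are scaled. Among all genes called, 57.5% were higher in the deposited scaling, 43.7% with quantile normalization, 38.6% with scaling to the total of reads on genes and 23.7% with scaling to GAPDH, the housekeeping gene that served as qRT-PCR reference, which was itself at 398 and 432 FPKM in control and 1501 and 1499 FPKM with GNE-987. These alternatives moved the median log2 fold change of all genes by -0.42, -0.74 and -1.70. Values relative to the median of all genes and ratios between genes inside a library are therefore given beside the changes.

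**Figure D1:**
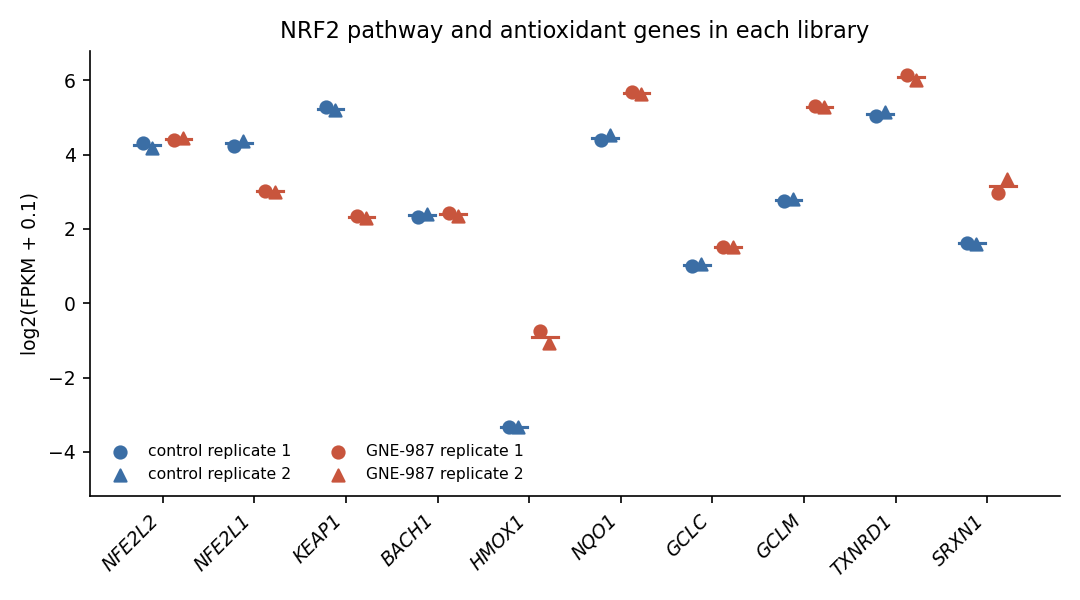
Expression of the 10 genes in each library, as log2(FPKM + 0.1) on the vertical axis, with circles for replicate 1, triangles for replicate 2, blue for control, red for GNE-987 and a short line for the mean of each pair. KEAP1 and NFE2L1 sit lower with GNE-987, GCLM, NQO1, TXNRD1, SRXN1 and GCLC sit higher in this scaling (all of these but GCLM lie below 0 with scaling to GAPDH, and GCLC also with scaling to total reads), and HMOX1 is listed at 0 in both control libraries.

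KEAP1, the sensor that holds NRF2 for degradation, fell most. Its control values were 38.7 and 36.6 FPKM, resting on 3354 and 3042 reads, and its GNE-987 values were 5.02 and 4.85 FPKM, resting on 158 and 161 reads. The groups do not overlap, and the means were 37.6 ± 1.53 FPKM and 4.94 ± 0.124 FPKM (SD, n = 2 libraries each), which is 7.63-fold lower with GNE-987. On the log2 scale the difference was -2.91 (SE 0.0599, limma adjusted P = 0.000119 by Benjamini-Hochberg across all tested genes). Only 1.28% of the protein-coding genes tested had a lower log2 fold change. The call held under each of the 16 alternatives run, with log2 fold changes from -4.69 to -2.70. KEAP1 (ENSG00000079999) is on chromosome 19 of hg38, minus strand, from 10486125 to 10503558, and no other annotated gene shares its exons.

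BACH1, the heme-regulated repressor of the same elements, did not follow KEAP1. It was at 4.95 and 5.20 FPKM in control and at 5.32 and 4.99 FPKM with GNE-987, so that the groups overlap. The log2 fold change was 0.02 with a 95% interval from -0.20 to 0.25 in the deposited scaling, which corresponds to a fold change between 0.869 and 1.19, with a limma adjusted P of 0.808. With scaling to total reads it was -0.74, not past the fold threshold, and with scaling to GAPDH it was -1.76 and called lower. BACH1 (ENSG00000156273) is on the plus strand of chromosome 21, from 29194071 to 29630751. It shares 302 exon bases with LINC00189 and 45 with GRIK1, both at 0.17 FPKM or less in every library.

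NFE2L2, the gene of NRF2, was at 19.99 and 18.0 FPKM in control and 20.8 and 21.6 FPKM with GNE-987. The ranges are apart by less than the spread between the control libraries. Its log2 fold change was 0.16 (limma adjusted P = 0.114), with a 95% interval from -0.04 to 0.36, which corresponds to a fold change between 0.969 and 1.29 in this scaling. Relative to the median of all genes it was -0.016. With scaling to total reads the value was -0.62, not past the fold threshold, and with scaling to GAPDH -1.68, called lower. NFE2L2 (ENSG00000116044) is annotated on the minus strand of chromosome 2 from 177218667 to 177392756, and its annotated exons share 3509 bases with HNRNPA3 on the opposite strand, which was at 146 and 137 FPKM in control and 102 and 94.4 FPKM with GNE-987. It shares 2037 exon bases with the long noncoding RNA gene ENSG00000213963 on its own strand, at 0.651 FPKM or less in every library, and 190 exon bases with the long noncoding RNA gene ENSG00000222043 on the opposite strand, at 1.39 and 0.544 FPKM in control and 42.2 and 42.5 FPKM with GNE-987. Whether the counting used strand is not given in the sources used here, so the reads of these shared stretches, and with them the level of NFE2L2, are uncertain.

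NFE2L1 encodes NRF1, a relative of NRF2 that is anchored in the endoplasmic reticulum and drives proteasome genes when the proteasome is impaired. It was at 18.8 and 20.7 FPKM in control and at 8.03 and 7.94 FPKM with GNE-987, with no overlap. The means were 19.8 ± 1.36 FPKM and 7.98 ± 0.0657 FPKM (SD, n = 2), 2.48-fold lower with GNE-987. The log2 difference of -1.30 (SE 0.0712, limma adjusted P = 0.000432) stayed called lower under each of the 16 alternatives, from -3.11 to -1.21. NFE2L1 (ENSG00000082641) is on the plus strand of chromosome 17, from 48048329 to 48061545.

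Ratios inside a library do not change where each library is scaled by 1 factor, as with total reads or GAPDH, but can with quantile normalization. NFE2L2 over KEAP1 was 0.516 and 0.493 in the control libraries and 4.14 and 4.45 with GNE-987, an 8.52-fold higher mean. NFE2L2 over NFE2L1 was 1.06 and 0.869 in control and 2.59 and 2.72 with GNE-987. NFE2L2 over BACH1 was 4.04 and 3.47 in control and 3.92 and 4.32 with GNE-987, with overlapping groups. The balance of activator to KEAP1 RNA thus moved in both libraries, whereas that of activator to BACH1 RNA stayed within the spread of the replicates. With 2 libraries per group, an exact permutation test, two-sided, cannot give a P value below 0.333 for a single ratio, so none is given.

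**Figure D2:**
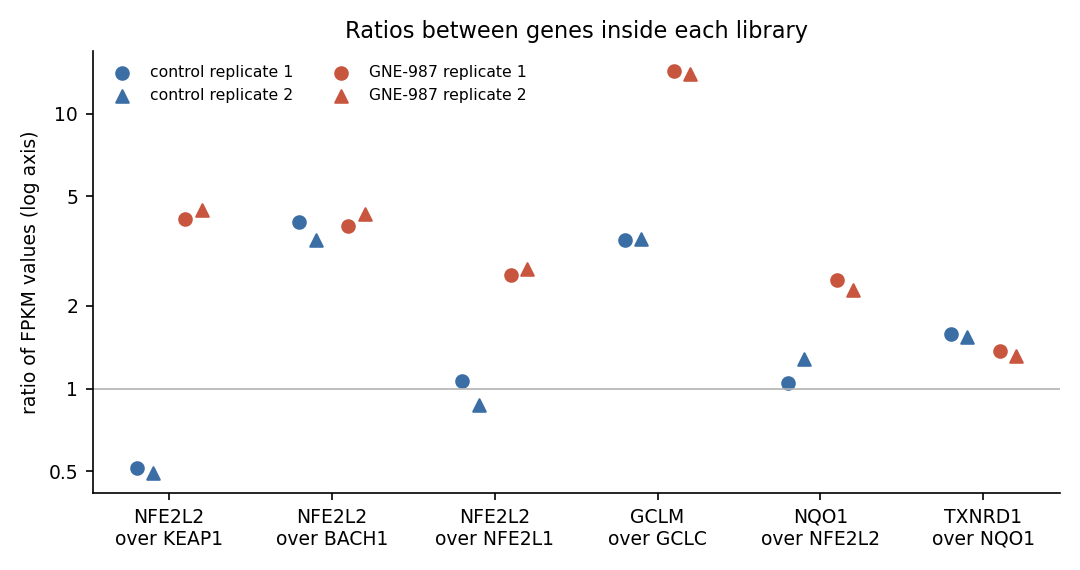
Ratios of FPKM values between pairs of genes inside each library, on a logarithmic vertical axis, with 1 point per library (blue control, red GNE-987, circles replicate 1, triangles replicate 2) and a grey line at 1. NFE2L2 over KEAP1 lies at 0.493 to 0.516 in control and at 4.14 to 4.45 with GNE-987, and the points of NFE2L2 over BACH1 overlap.

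The 2 subunits of glutamate-cysteine ligase, the rate-limiting enzyme of glutathione synthesis, moved to unlike extents. GCLM, the modifier subunit, was at 6.67 and 6.92 FPKM in control (832 and 830 reads), against 39.6 and 38.6 FPKM with GNE-987 (1795 and 1845 reads). The means were 6.79 ± 0.181 FPKM and 39.1 ± 0.738 FPKM (SD, n = 2), 5.75-fold higher with GNE-987. This is 2.51 on the log2 scale (SE 0.0521, limma adjusted P = 0.00012), and 1244 of the 10996 protein-coding genes had a larger value. Of the 9 genes tested, GCLM alone stayed above 0 in all 16 alternatives, and it was called in 15 of them. With scaling to total reads it was 1.73 and called higher, and with scaling to GAPDH it was 0.66, not past the fold threshold, at a limma adjusted P of 0.00095. No annotated gene overlaps GCLM (ENSG00000023909), on the minus strand of chromosome 1 from 93885199 to 93909456.

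GCLC, the catalytic subunit, was at 1.91 and 1.97 FPKM in control and 2.77 and 2.77 FPKM with GNE-987. The groups do not overlap, but the log2 fold change of 0.49 (SE 0.0998, limma adjusted P = 0.0136) did not reach the fold threshold, and it was -0.26 with scaling to total reads and -1.24, called lower, with scaling to GAPDH. GCLM over GCLC was 3.48 and 3.51 in control and 14.3 and 13.9 with GNE-987, a 4.04-fold higher mean. GCLC (ENSG00000001084) is on the minus strand of chromosome 6, from 53497341 to 53616970.

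NQO1, a reductase that takes quinones to hydroquinones and is a standard readout of NRF2 activity, was at 20.9 and 23.0 FPKM in control and at 51.6 and 49.3 FPKM with GNE-987. Both GNE-987 libraries lie above both control libraries, with means of 21.9 ± 1.5 FPKM and 50.5 ± 1.60 FPKM (SD, n = 2). In the deposited scaling this is a log2 difference of 1.20 (SE 0.0681, limma adjusted P = 0.000464). It was 0.83 with quantile normalization and 0.42 with scaling to total reads, neither called, and -0.65 with scaling to GAPDH. NQO1 over NFE2L2 rose from 1.04 and 1.28 to 2.48 and 2.29. NQO1 (ENSG00000181019) is on the minus strand of chromosome 16 from 69706996 to 69726668.

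TXNRD1, the cytosolic thioredoxin reductase, a selenoprotein, had the highest level of the 10 genes with GNE-987. It was at 33.1 and 35.5 FPKM in control (5114 and 5264 reads), against 70.5 and 64.8 FPKM with GNE-987 (3955 and 3834 reads), with no overlap. The log2 fold change of 0.98 (SE 0.0683, limma adjusted P = 0.000718) lay just under the fold threshold, so TXNRD1 was not called. It was called without control replicate 2, at 1.03, and without GNE-987 replicate 2, at 1.04. With scaling to total reads it was 0.20, and with scaling to GAPDH -0.87. TXNRD1 over NQO1 was 1.59 and 1.54 in control and 1.37 and 1.31 with GNE-987, with no overlap, so that TXNRD1 gained less than NQO1. TXNRD1 (ENSG00000198431) is on the plus strand of chromosome 12, from 104215779 to 104350307.

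SRXN1, sulfiredoxin, which reactivates overoxidized peroxiredoxins, was at 2.99 and 2.92 FPKM in control (186 and 174 reads), against 7.76 and 10.1 FPKM with GNE-987 (175 and 240 reads). The GNE-987 libraries differ from each other in proportion more than for the other 8 genes tested, with means of 2.95 ± 0.0557 FPKM and 8.92 ± 1.64 FPKM (SD, n = 2). A log2 difference of 1.55 (SE 0.152, limma adjusted P = 0.00163) was found in the deposited scaling. It was 0.78, not called, with scaling to total reads and -0.26 with scaling to GAPDH. SRXN1 (ENSG00000271303) is on the minus strand of chromosome 20 from 646615 to 653200, and 2292 bases of its 2528 annotated exon bases are shared with ENSG00000270299, at 0.112 FPKM or less in every library, so its level is uncertain where the counting left out shared reads.

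HMOX1 encodes heme oxygenase 1, which cleaves heme to biliverdin, iron and carbon monoxide and is repressed by BACH1. Both control libraries list it at 0, and it was at 0.497 and 0.377 FPKM with GNE-987. The GNE-987 values correspond to 10 and 8 reads at the whole gene length nearest to the annotation, or to 5 and 4 reads at a length near 1202 bases, 1 of several lengths that also give whole reads. Against a floor of 3 reads in each control library, the mean of HMOX1 with GNE-987 was 7.90-fold higher at the first length and 3.95-fold higher at the second. This bound covers the control side only, since the few GNE-987 reads are taken as counted. At the first length the bound was 4.59-fold with scaling to total reads and 2.18-fold with scaling to GAPDH. HMOX1 stayed the lowest of the 10 genes in both groups, and with a mean of 0.219 FPKM it was left out of the main test. Without the filter its log2 fold change was 2.42 (SE 0.276, limma adjusted P = 0.00683). HMOX1 (ENSG00000100292) is on the plus strand of chromosome 22, from 35380361 to 35394214, with no overlapping gene.

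The order of levels changed with the treatment. In control the order by mean FPKM was KEAP1, TXNRD1, NQO1, NFE2L1, NFE2L2, GCLM, BACH1, SRXN1, GCLC and HMOX1, and only the neighbours NFE2L1 and NFE2L2 overlapped. With GNE-987 the order was TXNRD1, NQO1, GCLM, NFE2L2, SRXN1, NFE2L1, BACH1, KEAP1, GCLC and HMOX1, with overlap between SRXN1 and NFE2L1 and between BACH1 and KEAP1. KEAP1 thus went from rank 1 to rank 8, and GCLM from rank 6 to rank 3, and these ranks do not change where each library is scaled by 1 factor. The order does depend on the gene lengths used by the authors. For NFE2L2, 4 lengths gave whole reads, so that its length was not determined.

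**Figure D3:**
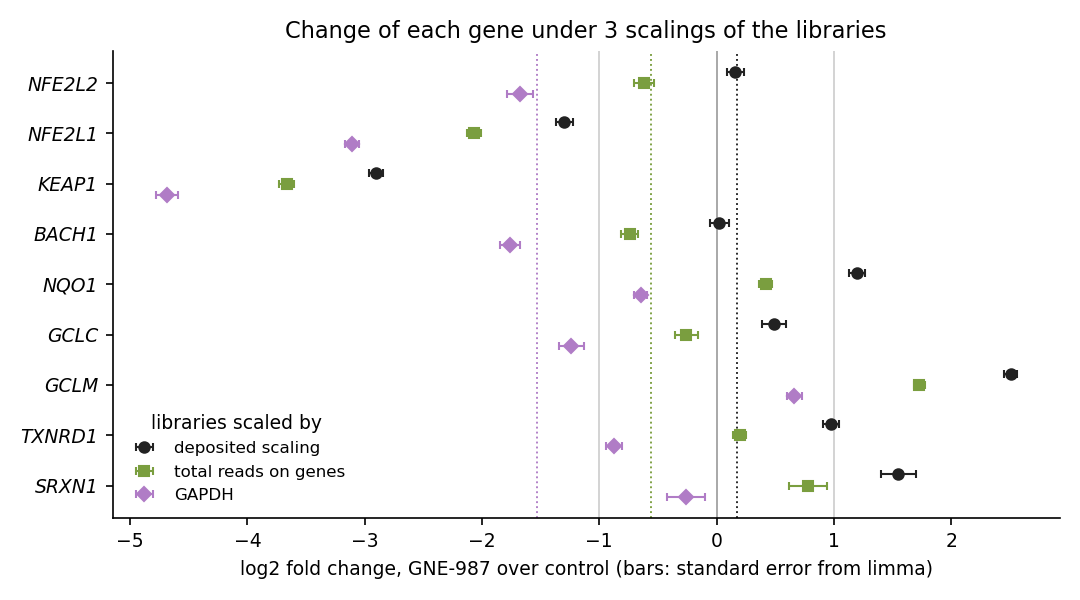
Log2 fold change of GNE-987 over control for the 9 genes tested, with standard error bars from limma, in the deposited scaling (black circles), with scaling to total reads on genes (green squares) and to GAPDH (purple diamonds). Dotted lines mark the median of all genes in the same colour (0.17, -0.56 and -1.53) and grey lines mark 0 and the fold threshold. KEAP1 and NFE2L1 lie left of the threshold in all of them, GCLM lies right of 0 in all of them, and the other genes change side with the scaling.

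Relative to the median of all genes, which moves with the scaling, the deposited values gave 2.33 for GCLM, 1.38 for SRXN1, 1.02 for NQO1, 0.80 for TXNRD1, 0.31 for GCLC, -0.15 for BACH1, -1.47 for NFE2L1 and -3.08 for KEAP1 on the log2 scale. The 5 target genes tested stand above that median and both KEAP1 and NFE2L1 below it. Among all genes tested, the target genes stood between the 55.9th percentile (GCLC) and the 78.8th (GCLM). Among the protein-coding genes tested, whose median is lower, they stood between the 67.5th (GCLC) and the 88.7th (GCLM), and 1244 to 3575 protein-coding genes had larger values.

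The rest of the pathway was taken from 8 lists of 89 genes, of which 88 were matched by symbol and 78 tested. In the deposited scaling 28 (35.9%) were called higher and 12 (15.4%) lower. Over all genes tested the shares were 33.6% and 24.9%, and over the protein-coding genes tested 24% and 31.7%. The median log2 fold change of the 78 genes was 0.39. With scaling to total reads 10 were higher and 22 lower, beside 4170 higher and 6640 lower of all 16668 genes tested. With scaling to GAPDH 5 were higher and 48 lower, beside 3004 and 9694 of all genes tested. For the genes that the rule in the processing section names, the limma adjusted P was at most 0.00307. Of the 19 called higher, 19 stayed above 0 and 9 stayed called with scaling to total reads, 16 and 7 with quantile normalization, and 8 and 4 with scaling to GAPDH. The 8 called lower stayed below 0 and called in all of these.

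Among 12 tested partners and regulators of NRF2, 4 rose (33.3%) and 2 fell (16.7%) in the deposited scaling. Over all genes tested 33.6% were called higher and 24.9% lower, and the shares of each list below are to be read beside these. NFE2, the erythroid relative of NRF2 that also pairs with small MAF proteins, fell from 58.6 and 52.9 FPKM to 3.25 and 2.98 FPKM, a log2 fold change of -4.12. NFE2L3, the gene of NRF3, rose from 3.03 and 2.74 FPKM to 50.9 and 49.0 FPKM, a log2 fold change of 4.07, although 28.1% of its exon bases are shared with HNRNPA2B1. The NRF2 relatives thus went in unlike directions, with NFE2 and NFE2L1 lower, NFE2L3 higher and NFE2L2 not called. SQSTM1, the autophagy receptor p62 that can take KEAP1 to autophagosomes, rose from 11.5 and 11.8 FPKM to 111 and 116 FPKM, a log2 fold change of 3.27 that was 2.49 with scaling to total reads and 1.42 with scaling to GAPDH, and 21.0% of its exon bases are shared with MRNIP, which went from 2.91 and 3.24 FPKM to 68.7 and 71.4 FPKM. GSK3B, a kinase that marks NRF2 for another ubiquitin ligase, had a log2 fold change of 2.01, and PGAM5, a mitochondrial phosphatase that binds KEAP1, of -1.43. Among 4 genes of NRF1 processing 1 rose and 1 fell (25% each), and SYVN1, a ubiquitin ligase of the endoplasmic reticulum, had a log2 fold change of 2.26.

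Glutathione genes were mixed, with 6 of 19 higher (31.6%) and 4 lower (21.1%), near the shares of all genes tested. GSTP1 (log2 fold change 1.83), a glutathione transferase, SLC3A2 (1.63), the heavy chain of the cystine transporter and of other amino acid transporters, and GPX4 (1.58), the peroxidase that repairs lipid peroxides, rose in the deposited scaling and lay below 0 with scaling to GAPDH, at -0.02, -0.23 and -0.27, and GSTP1 also with quantile normalization, at -0.12. GSR, which regenerates glutathione, fell from 48.4 and 49.5 FPKM to 19.9 and 17.5 FPKM, and CHAC1 and CHAC2, which degrade glutathione, fell with log2 fold changes of -2.02 and -1.22. SLC7A11 and GPX1 are outside the rule for named genes and were named after their values were seen. SLC7A11, the light chain of the cystine transporter, was called lower, from 4.04 and 4.80 FPKM in control to 1.74 and 2.09 FPKM with GNE-987. Its log2 fold change was -1.17 in the deposited scaling (limma adjusted P = 0.00384). GPX1 is the main cytosolic glutathione peroxidase. It was at 0.0607 and 0.0316 FPKM in control and at 9.28 and 9.35 FPKM with GNE-987, and 39.9% of its exon bases are shared with another annotated gene, so that its level is uncertain.

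In the deposited scaling the thioredoxin and peroxiredoxin list had 8 of 14 genes higher (57.1%) and 1 lower (7.14%). The shares of all genes tested were 33.6% and 24.9%. TXNIP, the inhibitor of thioredoxin, rose from 26.2 and 26.4 FPKM to 971 and 961 FPKM, a log2 fold change of 5.19 that was 3.34 with scaling to GAPDH. The other genes of this list called higher include PRDX5 and PRDX2, peroxiredoxins that reduce peroxides, with log2 fold changes of 1.78 and 1.68 (-0.08 and -0.18 with scaling to GAPDH). With scaling to total reads PRDX5 and PRDX2 were at 0.997 and 0.896, neither called, while TXNIP stayed called at 4.41. The list's share of higher calls is thus that of the deposited scaling only. MSRB1, a selenoprotein that repairs oxidized methionine, was called lower at -1.02. SOD1, the cytosolic superoxide dismutase, and PARK7 had log2 fold changes of 1.25 and 1.16, below 0 with scaling to GAPDH. They were the 2 called of 4 tested (50%).

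Of 7 genes of NADPH supply, 2 rose (28.6%, beside 33.6% of all genes tested) and none of the other 5 was called. PGD, a dehydrogenase of the pentose phosphate pathway, rose from 98.5 and 92.7 FPKM to 204 and 210 FPKM, a log2 fold change of 1.12 (-0.74 with scaling to GAPDH). Of 6 genes of heme breakdown and iron storage 3 rose (50%) and 1 fell (16.7%). The ferritin chains FTL and FTH1 had log2 fold changes of 2.04 and 1.89, but -0.20 and -0.07 with quantile normalization, and 16 and 25 annotated pseudogenes carry their names, with which reads can be shared. Of the exon bases of FTH1, 63.2% are shared with BEST1, which went from 0.0827 and 0.0506 FPKM to 8.92 and 9.39 FPKM, so that its level is uncertain. BLVRB, a biliverdin reductase, had 1.05 (-0.80 with scaling to GAPDH), and SLC48A1, a heme transporter, fell with -1.70. Of 12 quinone, carbonyl and efflux genes 2 rose (16.7%) and 3 fell (25%). OSGIN1, an oxidative stress-induced growth inhibitor, rose from 2.22 and 1.45 FPKM to 19.2 and 20.1 FPKM, EPHX1, an epoxide hydrolase, had a log2 fold change of 1.66 (-0.19 with scaling to GAPDH), and ABCC4, an efflux pump, fell with -1.47.

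**Figure D4:**
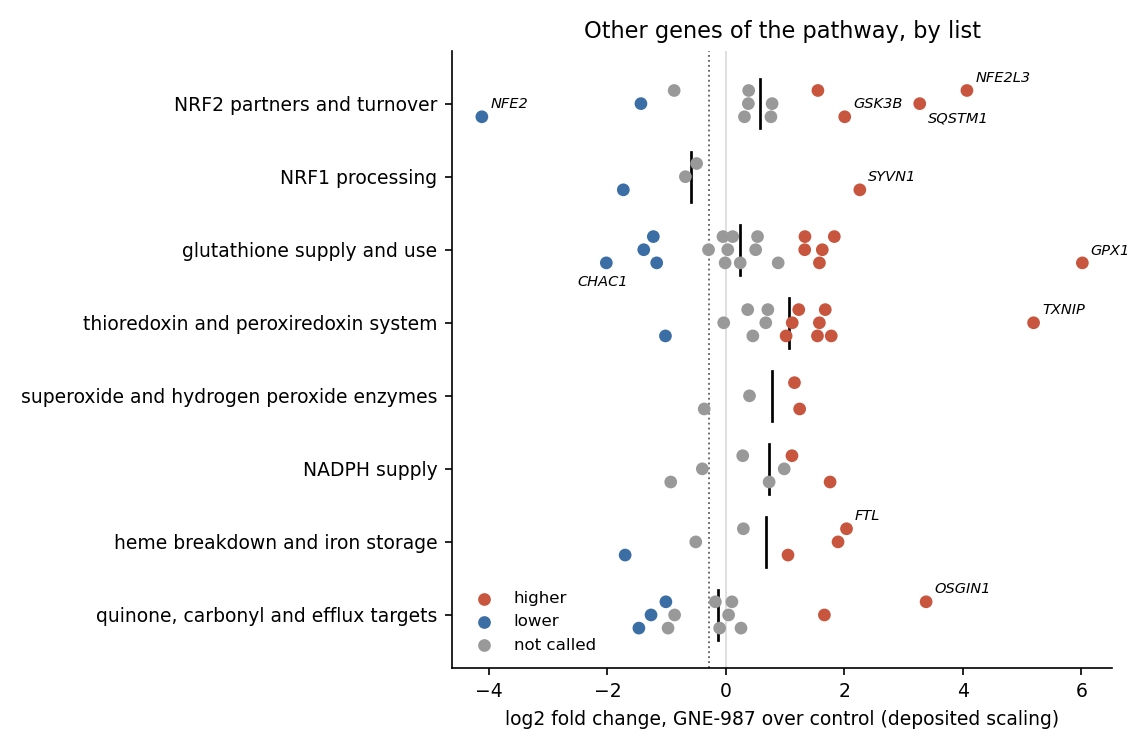
Log2 fold change of GNE-987 over control in the deposited scaling for the 78 tested genes of the 8 lists, 1 point per gene, red where called higher, blue where called lower and grey where not called. Black lines mark each list's median and the dotted line the median of protein-coding genes (-0.29). The thioredoxin and peroxiredoxin list lies furthest right, with a median of 1.07, and with scaling to GAPDH only 5 genes over all lists are called higher, against 28 here.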

How the data were processed

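RNA-seq was measured in 4 libraries of cells labelled NB4, 2 control and 2 with GNE-987, grouped by sample title. The authors filtered reads, mapped them with HISAT (HISAT2 2.0.5 and hg38 per the submitters' processing notes) and deposited FPKM values per gene. The counting program, annotation and strand setting are not given in the sources used here. Identifiers were matched to GENCODE release 44 (58207 of 58735, 99.1%).

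Reads per gene were recovered from the FPKM values, which step by the worth of 1 read (tolerance 0.01 of a read). At GENCODE lengths 53.0% of genes above 0 came out whole, and other genes, all 10 examined here among them, did so at another whole length, so their read numbers are less certain. The deposited scale of each library lay within 0.004% of the median-ratio size factor of these reads. Scaling is thus to the typical gene, not to total reads.

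Values were tested as log2(FPKM + 0.1), which understates changes of low genes, with limma 3.58.1 in R 4.3.3 (empirical Bayes with trend, no block), over genes whose mean was 0.5 FPKM or more, with Benjamini-Hochberg adjustment. On simulated data for 12840 genes the fit called 193 of 196 changed genes (98.5%) and 0.949% of unchanged ones. There few genes changed, up and down in balance, with a set replicate spread and known library scales. The simulation therefore gives no error rate for data in which most genes are called and the scaling is uncertain, as here. Same-numbered libraries did not deviate together (correlation 0.00537), so the numbers were not used as pairs.

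The call thresholds (unadjusted P under 0.05, fold change over 2 or under 0.5) are those of the study's methods. The 10 genes and the lists were chosen with earlier results of these data known. Listed genes are named where called, with a mean of 5 FPKM or more, up to 3 in each direction per list, and 1 gene that this rule names is not reported here. The alternatives were pseudocounts of 1 and 0.01, no filter and a mean of at least 1 FPKM, quantile, median-ratio, GAPDH and total-read scaling, calls on adjusted P, limma's test against 2-fold, the replicate block, limma-voom on recovered reads, and each library left out. Protein sequences were not used here.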

Additional observations from a re-analysis of the deposited data

How the results depend on the processing

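KEAP1 and NFE2L1 stayed called lower in all 16 alternatives. Of 144 values of the 9 genes under alternatives, 127 kept their direction and their side of the thresholds and 11 changed sign, 9 of these with the scalings to GAPDH or to total reads. Several alternatives leave the log2 fold changes of the main fit as they are, so no sign could change in them. These are median-ratio scaling, the other filters, the replicate block, calls on adjusted P and the test against 2-fold.
With scaling to GAPDH 3004 genes were higher and 9694 lower, 0 of the 9 genes were called higher by limma and 5 lower, and 5 listed genes were higher and 48 lower. The log2 fold changes that changed sign were -1.68 for NFE2L2, -1.76 for BACH1, -0.65 for NQO1, -1.24 for GCLC, -0.87 for TXNRD1 and -0.26 for SRXN1. With scaling to total reads 6640 genes were lower, 1 of the 9 genes was higher, and 10 listed genes were higher and 22 lower. The values of NFE2L2, BACH1 and GCLC were then -0.62, -0.74 and -0.26. Both scalings lower every gene by construction. BACH1 changed sign without control replicate 1 and without GNE-987 replicate 1, with leave-one-out values between -0.022 and 0.067.
With no filter 8757 genes were higher, since more genes were tested, with quantile normalization 11 listed genes were higher, and against a fold change of 2, a stricter test, 7 listed genes were lower. Under the replicate block 5667 genes were higher and 4186 lower, and 3 of the 9 genes were higher and 2 lower, so the block changed no call among them. With 2 libraries per group and 12432249 reads in the shallowest, HMOX1 at 10 and 8 reads is the value that depth limits most.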
